A study of Mus musculus with 45 samples.

Results

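The 9 genes described here are among 35675 genes in the quantified transcriptome. They are genes of epithelial cells or, in the case of Dynap, a gene chosen with Cldn1 and Cldn4. The list holds the claudins Cldn1 and Cldn4, the keratins Krt7, Krt8, Krt18 and Krt19, the adhesion genes Cdh1 and Epcam, and Dynap. These genes were followed in mouse fibroblasts turned into muscle, and in muscle progenitors. Cldn1, Cldn4 and Dynap were chosen by their measured levels, because their transcripts are lost on the progenitor route or in the induced progenitors of these same libraries, so their levels are given as a description and are not tested. The other 6 genes were added as further epithelial genes. Krt7, Krt8, Krt18, Krt19 and Cdh1 had enough reads to be tested, and Epcam did not.

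Bulk RNA-seq covered 45 libraries in 15 groups of 3. All cells carried the same genotype, Tg:Pax7-nGFP/C57BL6;DBA2, in which a nuclear GFP reports Pax7, the transcription factor of muscle stem cells. Mouse embryonic fibroblasts (MEFs) with a MyoD transgene that doxycycline switches on were sampled untreated, or after 2, 4, 6, 8 and 10 days of doxycycline without further additions (MyoD alone, a route to myotubes) or together with the small molecules labelled F/R/C (the progenitor route). The 4 remaining groups were induced myogenic progenitor cells (iMPCs), in bulk or sorted for Pax7-nGFP, and myoblasts from skeletal muscle, in bulk or sorted in the same way. The series describes the bulk iMPCs as established clones that no longer need doxycycline, and their label gives 13 days of doxycycline with F/R/C. Whether the 3 libraries of a group came from separate cultures, animals or clones is not given in the sources used here, so p-values measure only the spread between these libraries.

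Epithelial cells are held together by tight junctions, in which claudins seal the space between neighbours, and by adherens junctions built on E-cadherin, the product of Cdh1. Their cytoskeleton contains keratins that assemble in pairs of one acidic and one basic partner; Krt18 and Krt19 are acidic, Krt7 and Krt8 basic, and the pair of Krt8 and Krt18 is typical of simple epithelia. Epcam encodes a surface adhesion protein used as an epithelial marker, and Dynap encodes a membrane protein named for its binding to dynactin. Fibroblasts and muscle cells are mesenchymal, and neither type forms an epithelium.

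Promoter windows from RefSeq (GRCm38.p6) were at hand for 6 of the 9 genes. The E-box, CANNTG, is the site of MyoD-family factors, which favour CAGCTG, and its form CACCTG is read by the Snail and Zeb repressors of epithelial genes. The windows of Krt7 and Epcam are not shown. Those of Cldn1 (chr16:26371842-26372089, minus strand), Cldn4 (chr5:134946935-134947184, minus strand), Krt8 (chr15:102004483-102004592, minus strand) and Krt18 (chr15:102027966-102028179, plus strand) are shown. Each lies upstream of the RefSeq start site and outside annotated exons of the gene, is written 5′ to 3′ on the gene's strand, and has its CANNTG matches in capitals.
Cldn1: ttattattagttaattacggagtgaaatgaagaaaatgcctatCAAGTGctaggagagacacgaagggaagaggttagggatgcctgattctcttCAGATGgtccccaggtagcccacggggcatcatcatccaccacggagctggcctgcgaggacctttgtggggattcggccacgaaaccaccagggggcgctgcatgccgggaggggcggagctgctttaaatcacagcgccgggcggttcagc
Cldn4: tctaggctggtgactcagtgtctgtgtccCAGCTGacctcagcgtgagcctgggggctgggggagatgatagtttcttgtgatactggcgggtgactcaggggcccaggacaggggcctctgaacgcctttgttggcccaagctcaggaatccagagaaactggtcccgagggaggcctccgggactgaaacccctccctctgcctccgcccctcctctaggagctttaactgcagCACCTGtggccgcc
Krt8: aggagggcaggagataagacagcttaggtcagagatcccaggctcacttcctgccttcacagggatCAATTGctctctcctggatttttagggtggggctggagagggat
Krt18: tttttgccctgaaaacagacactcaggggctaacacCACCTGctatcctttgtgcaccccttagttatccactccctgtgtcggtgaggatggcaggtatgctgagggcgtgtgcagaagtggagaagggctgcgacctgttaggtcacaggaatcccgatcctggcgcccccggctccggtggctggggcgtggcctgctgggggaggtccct

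In the 250 bases before the start, Cldn4 held 1 CAGCTG and 1 CACCTG, Krt8 held CAATTG and CACCTG, Krt18 and Krt7 held 1 CACCTG each, and Cldn1 held CAAGTG and CAGATG. Epcam held CACCTG and CAGGTG, which is CACCTG read on the other strand. The CACCTG of Krt8 lies in the part of its window that overlaps an exon and is not printed. Both strands were searched; CANNTG reads the same on each, and CAGCTG and CACCTG are both among its matches. Of 32851 mouse promoters of that length, 66.2% held CANNTG, 13% held CAGCTG and 17.2% held CACCTG on either strand. The matches are a description of the letters only.

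Levels are given as CPM, a gene's reads per 1000000 reads of the library's TMM-scaled total, for replicates 1, 2 and 3 in that order. A gene was called when the Benjamini-Hochberg adjusted p of edgeR's quasi-likelihood test, over 17325 genes, was under 0.05 and the fold change was at least 2. All adjusted p-values below come from that test. At most 3 reads in a library is treated as not detected, and a fold against a group in which no library passed 3 reads is a lower bound. In bulk RNA, fewer cells of a type and less RNA per cell cannot be told apart. Library totals ran from 15.6 M to 36.3 M reads, the deepest being those of bulk iMPCs and bulk myoblast replicate 2. The 6 sorted libraries also differed from all others in the fragment length the authors' quantification assumed (180.03 against 152.81 bases), so sorting and that setting cannot be told apart in any sorted-against-bulk value.

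Markers of epithelial cells were mixed. Epcam had at most 6 reads in 44 libraries, and replicate 2 of the bulk iMPCs alone had 35 reads (0.987 CPM). Cdh1 never passed 59 reads in a library and had at most 3 reads in every library of 4 groups. The skin keratins Krt5 and Krt14 did not pass 3 reads in any library. Of the same 6 keratinocyte markers, Trp63, a transcription factor of basal epithelia, had at most 1 read in any MEF library. Its mean was 29.1 CPM for MyoD alone on day 10, 29.3 CPM for F/R/C on that day and 28.7 CPM in bulk iMPCs. Krt5, Krt14, Krt15 and Dsg3, also among the 6, had at most 3 reads in every library of both day-10 groups. Of the epithelial junction genes, MEFs held 86.9 CPM of Perp, 23.8 of Cdh3 and 10.6 of Dsp, and bulk myoblasts held 120 CPM of Itgb4 and 27.1 of Marveld2. These genes were picked after their values were seen, to show that not all such markers were near 0. Perp, Cdh3, Dsp, Itgb4 and Marveld2 come from a list of 50 epithelial genes. Of these 50, 16 had at most 3 reads in every MEF library, and 17 in every bulk myoblast library. The fibroblast collagen Col1a1 was at 4817, 3647 and 3496 CPM in the MEFs, and Pax7 was at 64.5, 39.3 and 81.3 CPM in bulk iMPCs and 428, 401 and 639 CPM in bulk myoblasts. By length-scaled level (TPM, means of the 3 libraries), Cldn1 (43.0 TPM) and Krt18 (38.3 TPM) led the 9 genes in MEFs, followed by Dynap (18.7 TPM) and Krt19 (13.9 TPM), with Krt7 at 0.868 and Krt8 at 0.516 TPM.

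Cldn1, a claudin of epidermal and other tight junctions, was a fibroblast transcript here and was low in every muscle group. MEFs had 25.0, 126 and 97.9 CPM, above every other library in the series. After 2 days of MyoD alone the values were 2.38, 1.95 and 4.05 CPM, and with F/R/C they were 2.19, 1.88 and 1.66 CPM. The group means lay 29.8-fold below that of MEFs with MyoD alone and 43.6-fold below it with F/R/C.

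From day 4 the routes separated. With MyoD alone, replicate 3 held 13.1, 13.6, 14.8 and 15.1 CPM on days 4, 6, 8 and 10, while replicates 1 and 2 held between 1.06 and 2.29 CPM. The F/R/C libraries held 1.16, 1.32 and 0.856 CPM on day 4, 0.735, 0.881 and 0.996 CPM on day 6, 0.761, 1.14 and 0.118 CPM on day 8, and 0.278, 0.584 and 0.388 CPM on day 10. On each of these 4 days the 3 F/R/C libraries lay below the 3 libraries of MyoD alone. The size of that gap rests on replicate 3: the day-10 difference of -3.85 on the log2 scale became -1.63 without it, and the day-4 difference moved from -2.35 to -0.79. Fibroblast transcripts moved partly with it: the summed CPM of 6 fibroblast markers on day 10 of MyoD alone was 7343, 1869 and 6340 in replicates 1, 2 and 3, so replicate 1 was high in these markers and low in Cldn1. Their part in the Cldn1 values was not tested.

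Bulk iMPCs held 0.328, 0.225 and 0.0807 CPM of Cldn1, and the sorted Pax7-nGFP-positive iMPCs held no read in any of the 3 libraries. Bulk myoblasts had 0.494, 0.501 and 0.946 CPM and sorted myoblasts 0.918, 0.388 and 0.109 CPM. In the order of the 15 group means, only 3 of 14 neighbouring pairs had libraries that did not overlap: MEFs above the next group, F/R/C day 2 above F/R/C day 4, and bulk iMPCs above sorted iMPCs.

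Cldn4, another tight-junction claudin, was not detected in the fibroblasts and appeared with MyoD. MEFs had 0, 3 and 0 reads. Day 2 of MyoD alone gave 1.70, 1.72 and 3.87 CPM, at least 15.8-fold above MEFs, and day 2 with F/R/C gave 2.01, 1.45 and 1.80 CPM, at least 11.4-fold above. With MyoD alone day 10 held 0.0926, 0.892 and 0 CPM. On the progenitor route it stood at 2.98, 2.74 and 0.952 CPM on day 4, 4.64, 3.16 and 0.698 CPM on day 6, 2.45, 1.48 and 1.69 CPM on day 8 and 1.15, 0.438 and 1.20 CPM on day 10. So on the progenitor route itself Cldn4 was above the fibroblast level on all 5 days, and the F/R/C libraries were above those of MyoD alone without overlap on days 6 and 8.

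It was in the iMPCs that Cldn4 was missing. Bulk iMPCs had 1, 0 and 0 reads and sorted iMPCs 0, 1 and 0 reads, at least 11.3-fold below F/R/C day 10 for the bulk cells. Bulk myoblasts had 80.4, 1.30 and 0.546 CPM, so that replicate 1 held nearly all of it. Bulk iMPCs lay at least 333-fold below bulk myoblasts, or at least 11.2-fold below them without that replicate. Sorted myoblasts had 0.247, 0.0353 and 10.2 CPM, so there the high library was replicate 3. No neighbouring pair of the 15 group means was free of overlap.

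Dynap had the widest range of the 9 genes and separated the myoblasts from the iMPCs. Bulk myoblasts had 206, 93.8 and 18.2 CPM and sorted myoblasts 36.3, 11.4 and 4.40 CPM, the highest group means in the series. MEFs had 0.571, 18.4 and 19.5 CPM, so MEF replicate 1 lay apart from the other MEF libraries, and it was also the lowest MEF library for Cldn1. Bulk iMPCs had 14, 0 and 1 reads (0.383, 0 and 0.0269 CPM), and sorted iMPCs had none. The mean of bulk iMPCs was 775-fold below that of bulk myoblasts, a value that rests on bulk iMPC replicate 1: without it the fitted log2 difference moved from -9.54 to -12.44, and its size then depends on the prior count. Sorted iMPCs were at least 128-fold below sorted myoblasts.

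On the way from MEFs, Dynap was low with MyoD alone and, from day 4, lower still with F/R/C. With MyoD alone the libraries held 2.38, 1.43 and 1.80 CPM on day 2, 2.79, 3.85 and 7.14 CPM on day 8 and 1.20, 2.33 and 2.61 CPM on day 10. On the progenitor route they held 1.74, 1.03 and 0.230 CPM on day 2, 0.489, 0.263 and 0.238 CPM on day 4, 0.230, 0.363 and 0.149 CPM on day 6, 0.217, 0.175 and 0 CPM on day 8, and 0.0795, 0.0487 and 0 CPM on day 10. The F/R/C libraries lay below those of MyoD alone without overlap on days 4, 6, 8 and 10, by 8.04-fold, 9.44-fold and 35.2-fold on days 4, 6 and 8 and by at least 16.6-fold on day 10.

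**Figure D1:**
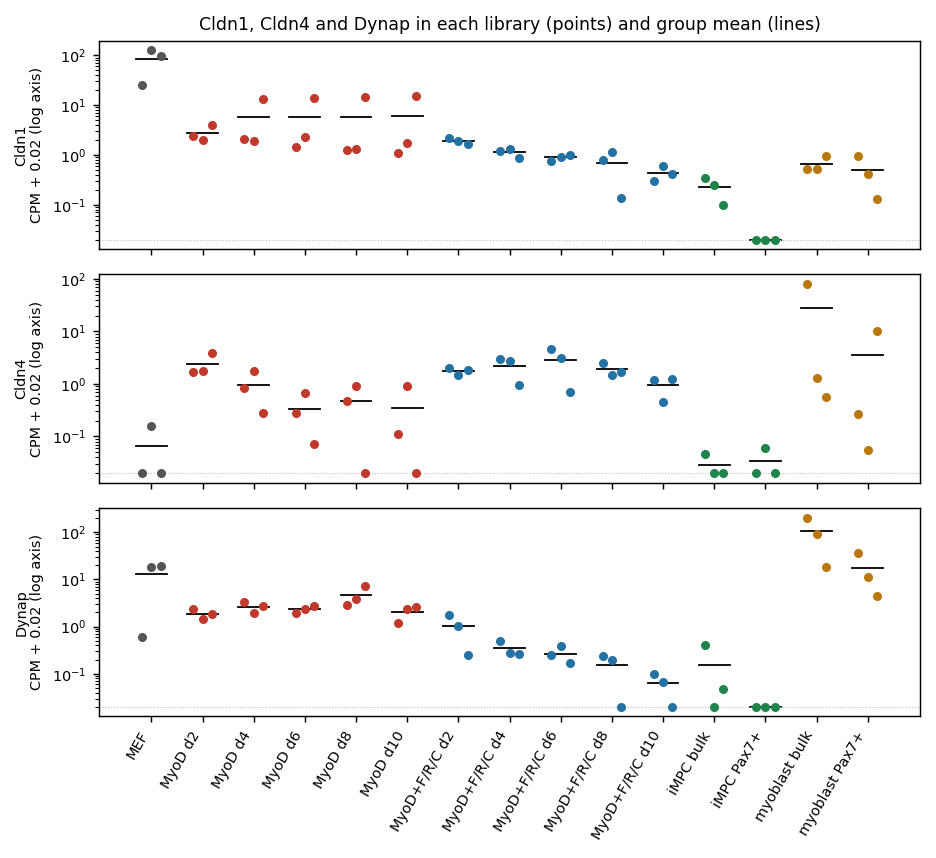
CPM plus 0.02 on a log axis for Cldn1, Cldn4 and Dynap in every library (points, replicates 1 to 3 from left to right) with the group mean as a line; the dotted line marks 0 reads. Cldn1 peaks in MEFs at 25.0 to 126 CPM, Cldn4 and Dynap in bulk myoblasts, and all 3 genes are at or near 0 in sorted iMPCs.

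By a likeness rule set for these genes, the Pearson correlation of the 15 group means of log2 CPM, the genes closest to Cldn1 were Sdcbp (r = 0.97), Cr2, Il1rap, Kcnb2 and Acpp (down to r = 0.95). The closest to Dynap were Orai2 (r = 0.97), Il18rap, 4930471E19Rik, Cdh18 and Rasa1 (r = 0.96 for the last 3). The closest to Cldn4 were Midn (r = 0.88), Abl2, Omp, Gal and Nell1. The closest to Krt8 were Fcho1 (r = 0.93), Ren1, Got1l1, Ntrk3 and Mcpt1. The points share libraries within a group and the same time course, and several of these genes are themselves low. Among 8 of the 9 genes (Epcam was not included), Krt7 and Krt8 (r = 0.72), Krt18 and Krt19 (r = 0.72) and Cldn1 and Krt18 (r = 0.70) were the most alike, over the same 15 group means.

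The keratins of simple epithelia showed a different pattern, in which Krt7, Krt8 and the cadherin gene Cdh1 were higher on the progenitor route than with MyoD alone. Of the 5 tested genes, 0 were called on day 2 (2.13% of all genes had a higher and 2.80% a lower call, 4.93% in all), 2 on day 4 (13.2%), and 3 on each of days 6 (15.4%), 8 (18.7%) and 10 (23.3%), all higher with F/R/C. On day 2, 2 of the 5 had an unadjusted p under 0.05 (Krt18 and Cdh1), and DESeq2 called 0. Higher and lower calls made up 6.58% and 6.66% of all genes on day 4, 8.23% and 7.14% on day 6, 9.20% and 9.46% on day 8, and 9.91% and 13.4% on day 10.

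Krt7, a keratin of ductal and other simple epithelia, was at 0.835, 1.02 and 1.46 CPM in MEFs. With F/R/C it was at 2.46, 1.69 and 1.24 CPM on day 2, 9.07, 6.53 and 3.00 CPM on day 4, 11.7, 15.8 and 12.4 CPM on day 6, 12.5, 21.2 and 31.7 CPM on day 8 and 8.07, 17.5 and 31.5 CPM on day 10. With MyoD alone it stayed between 1.26 and 5.12 CPM over the 5 days, so that the groups did not overlap from day 6. The log2 difference between the routes was 1.58 (SE 0.51, adjusted p = 0.024) on day 4, 2.38 (SE 0.52, adjusted p = 0.0011) on day 6, 2.85 (SE 0.53, adjusted p = 0.00016) on day 8 and 2.71 (SE 0.52, adjusted p = 0.00015) on day 10. Leaving out replicate 2 of the MyoD-alone libraries gave 3.49 on day 8 and 3.39 on day 10. The day-4 call was lost without replicate 1 of F/R/C (adjusted p = 0.102) or replicate 1 or 3 of MyoD alone (0.0992 and 0.0756). Against MEFs the day-10 F/R/C libraries were 17.2-fold higher (log2 difference 4.11, SE 0.57, adjusted p = 5.1e-07), and with protein-coding transcripts alone the log2 difference was 3.35 (adjusted p = 5.5e-05).

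In bulk iMPCs it was low again, at 0.356, 0.338 and 0.484 CPM. That was 48.4-fold below F/R/C day 10 (log2 difference -5.58, SE 0.61, adjusted p = 5.8e-07), and with protein-coding transcripts alone the log2 difference was -4.06 (adjusted p = 5.48e-05). Most Krt7 reads, 72.0%, were assigned to a transcript annotated as a retained intron. The share was 72.2% on F/R/C day 10, 73.9% on day 10 of MyoD alone, 63.0% in bulk myoblasts and 47.0% in MEFs. In bulk and sorted iMPCs it was 22.4% and 25.3%, of only 43.4 and 20.1 reads summed over the libraries. Counting only transcripts annotated as protein coding, an alternative added after the data were seen, ended the day-4 call (log2 difference 0.85, adjusted p = 0.315) and kept those on days 6 (1.96, adjusted p = 0.0162), 8 (2.61) and 10 (2.81). On day 4 of MyoD alone, replicate 3 had 32.1 Krt7 reads, essentially all assigned to protein-coding transcripts. Krt7 overlaps an antisense gene; the kit marks strand, but the strand setting of the counting is not given in the sources used here.

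Krt8, the basic partner of Krt18, was barely detected except on days 6, 8 and 10 of the progenitor route. MEFs had 0.703, 0.465 and 0.317 CPM. With MyoD alone it had 0 reads in all 3 day-10 libraries, a decrease of at least 3.79-fold from MEFs (adjusted p = 0.0073). With F/R/C it held 0.894, 0.141 and 0.138 CPM on day 2 and 0.400, 0.421 and 0.143 CPM on day 4. The F/R/C means on days 2 and 4 (0.391 and 0.321 CPM) lay below the MEF mean of 0.495 CPM, with overlapping libraries. Later F/R/C libraries held 3.72, 3.21 and 0.847 CPM on day 6, 7.34, 2.75 and 1.46 CPM on day 8 and 2.23, 1.12 and 2.47 CPM on day 10. These libraries did not overlap those of MyoD alone on days 6, 8 and 10. On day 4, replicate 3 of F/R/C and replicate 1 of MyoD alone both had 3 reads, so the routes could not be separated there. The route difference was 21.6-fold on day 6 (log2 difference 4.38, SE 1.13, adjusted p = 0.0048; 5.59 without replicate 1 of MyoD alone), at least 25.9-fold on day 8 (adjusted p = 0.00037) and at least 14.8-fold on day 10 (adjusted p = 0.00024). On day 4 it was at least 2.18-fold and not called (adjusted p = 0.22). Against MEFs, Krt8 on F/R/C day 10 was 3.92-fold higher and not called (log2 difference 1.94, SE 0.96, adjusted p = 0.088). It was called when only those groups were fitted (adjusted p = 0.0121).

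Cdh1, the E-cadherin gene, was higher on the progenitor route but stayed low in all groups. MEFs had 0, 1 and 0 reads. The F/R/C libraries held 0.489, 0.474 and 0.761 CPM on day 4, 1.42, 2.44 and 1.84 CPM on day 6, 1.58, 1.05 and 2.32 CPM on day 8 and 0.556, 0.584 and 1.27 CPM on day 10, always above the libraries of MyoD alone. The fold between the routes was 4.28 on day 4 (adjusted p = 0.021), 9.32 on day 6 (adjusted p = 0.00037), 8.02 on day 8 (adjusted p = 0.00049) and 4.19 on day 10 (adjusted p = 0.0076). Without replicate 2 of MyoD alone the day-8 log2 difference moved from 3.00 to 4.45. The day-4 call was lost without replicate 1 of MyoD alone (adjusted p = 0.103) or replicate 3 of F/R/C (adjusted p = 0.0774). At a mean of 0.804 CPM, the day-10 F/R/C libraries were at least 5.23-fold above MEFs (adjusted p = 8.3e-06).

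**Figure D2:**
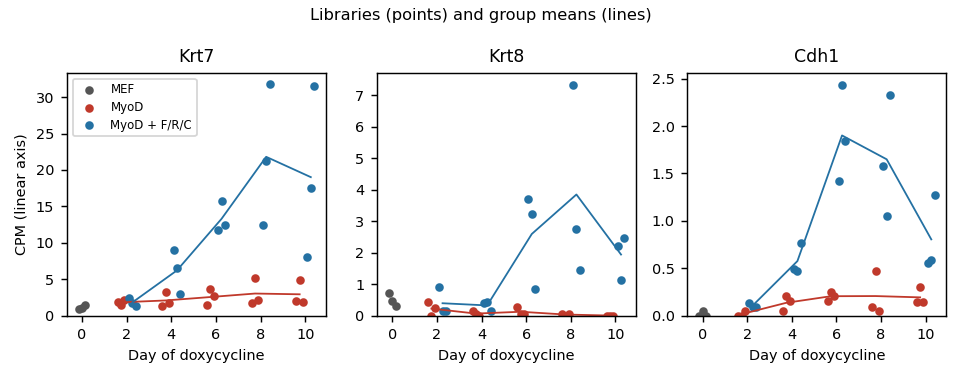
CPM on linear axes for Krt7, Krt8 and Cdh1 against the day of doxycycline, with each library as a point and group means joined by lines; grey points are untreated MEFs. From day 6 the F/R/C libraries lie above those of MyoD alone in all 3 panels, and Krt8 is at 0 in MyoD alone on day 10.

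Markers of mesothelium, an epithelium-like lining that expresses these keratins, moved partly with these genes. Between the routes, 1 of 6 tested markers was called higher with F/R/C on day 4, 2 on day 6, 2 on day 8 and 3 on day 10. None was called lower on any of these days. Of all genes, 6.58%, 8.23%, 9.20% and 9.91% were called higher on these days, and 6.66%, 7.14%, 9.46% and 13.4% lower. The summed CPM of 7 mesothelial markers was 221 to 368 on day 6 with F/R/C against 47.1 to 132 with MyoD alone, and 25.9 to 54.8 in MEFs. On day 10 the sums overlapped, at 103 to 288 with F/R/C and 33.0 to 183 with MyoD alone. Msln and Upk1b made up most of the sum; of the defining markers, Upk3b was at or under 3 reads in every library of 9 of the 15 groups. Bulk iMPCs reached 258 to 490 CPM, where Krt7 and Krt8 were low. Mean Cdh1 there was 0.993 CPM, against 0.804 CPM on F/R/C day 10. Sorted myoblasts reached 165 to 278 CPM, where Krt7, Krt8 and Cdh1 were low, and sorted iMPCs were at 5.63 to 8.04 CPM. The part of mesothelial cells in the Krt7, Krt8 and Cdh1 values was not tested.

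Krt18 and Krt19, the acidic keratins, had their highest group means in MEFs, and both were called lower on day 2 of MyoD alone. Those calls depended on single libraries. Krt19 was not particular to fibroblasts, with means of 8.41 CPM in MEFs, 8.37 CPM on F/R/C day 4 and 7.78 CPM in bulk iMPCs. Krt18 was at 16.8, 22.9 and 39.1 CPM in MEFs and at 6.03, 3.44 and 4.36 CPM after 2 days of MyoD alone (log2 difference -2.51, SE 0.92, adjusted p = 0.032). With F/R/C it was at 27.6, 14.9 and 10.2 CPM on day 2, 22.8, 9.90 and 8.66 CPM on day 4 and 26.0, 12.5 and 5.88 CPM on day 6, and at 7.0, 3.21 and 4.13 CPM on day 10 (log2 difference from MEFs -2.45, SE 0.91, adjusted p = 0.024). The F/R/C libraries exceeded those of MyoD alone without overlap on days 2 and 4, but the difference was not called (day 2: log2 1.93, SE 0.90, adjusted p = 0.20; day 4: log2 1.54, SE 0.89, adjusted p = 0.22). The fall from MEFs was not called without MEF replicate 3 (adjusted p = 0.0956 on day 2 of MyoD alone and 0.0862 on F/R/C day 10), nor without any 1 of the day-2 libraries (up to 0.111) or without F/R/C day-10 replicate 2 or 3 (0.101 and 0.0854). The route difference on days 2 and 4 was called when only those groups were fitted (adjusted p = 0.0179 and 0.0249). On all 5 days replicate 1 was the highest F/R/C library.

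Krt19 was at 14.9, 5.20 and 5.14 CPM in MEFs and at 3.41, 2.01 and 3.10 CPM on day 2 of MyoD alone (log2 difference -1.57, SE 0.61, adjusted p = 0.044). That call was lost without MEF replicate 1 (log2 difference -0.88, adjusted p = 0.313) and without any 1 of the day-2 libraries. With F/R/C the day-10 libraries held 4.61, 7.06 and 12.9 CPM, at the MEF level (log2 difference -0.04, SE 0.59, adjusted p = 0.96). Against MyoD alone (3.19, 0.743 and 5.68 CPM) the log2 difference on day 10 was 1.34 (SE 0.60, adjusted p = 0.074) and not called. DESeq2 called Krt19 on day 10 (adjusted p = 0.0469) and on day 8 (adjusted p = 0.0306), where edgeR did not (log2 1.49, adjusted p = 0.057), so that it called 4 of the 5 genes on each of these days. With edgeR the day-10 difference was called without replicate 3 of MyoD alone (adjusted p = 0.0172), and the day-8 difference without that replicate (0.0208) or F/R/C replicate 2 (0.0394).

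Against MEFs, 2 of the 5 tested genes were called on day 2 of MyoD alone, both lower (22.4% of all genes, 12.3% higher and 10.1% lower), and 4 on day 10 (18.9%, 14.3% higher and 4.64% lower), with Krt18 and Krt8 lower and Krt7 (log2 1.40, adjusted p = 0.045) and Cdh1 higher. Each of the day-10 calls of Krt18, Krt7 and Cdh1 was lost without replicate 2 of MyoD alone (adjusted p = 0.132, 0.37 and 0.0814). They were also lost without MEF replicate 3 (0.0771, 0.0535 and 0.0504), for Krt7 and Cdh1 without MEF replicate 1 (0.148 and 0.0735), for Krt7 without MEF replicate 2 (0.114), and for Krt18 without replicate 1 of MyoD alone (0.0859). Krt19 was called lower without replicate 3 of MyoD alone (0.0209). With F/R/C, edgeR called 0 on day 2 (20.4% of all genes, 11.5% higher and 8.93% lower), 1 gene, Cdh1, had an unadjusted p under 0.05, and DESeq2 called 0. Without MEF replicate 2, Cdh1 was called there (adjusted p = 0.0427). On day 10, 3 were called (34.8%, 19.0% higher and 15.8% lower), with Krt7 and Cdh1 higher and Krt18 lower.

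**Figure D3:**
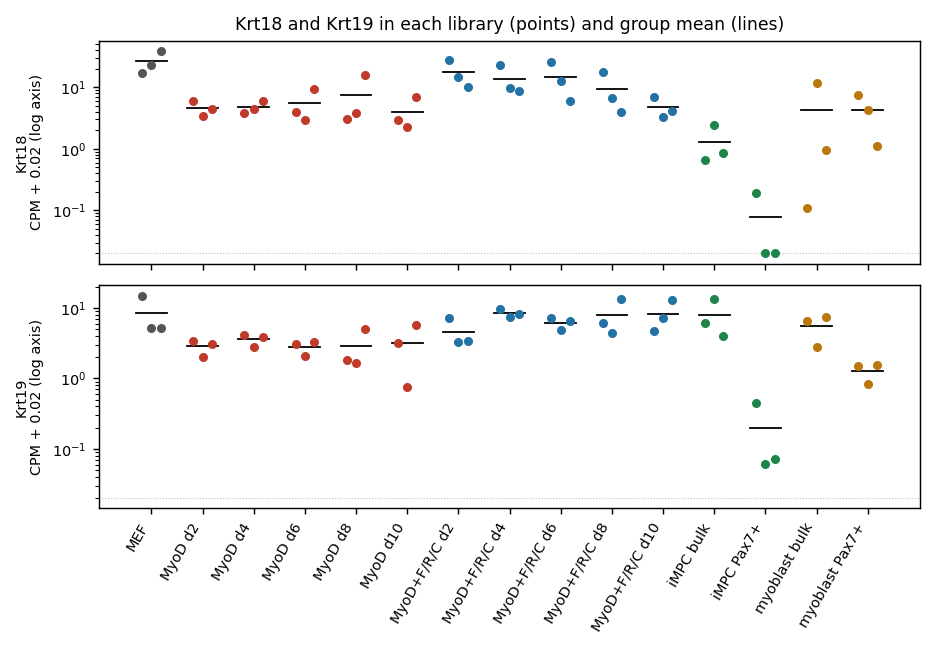
CPM plus 0.02 on a log axis for Krt18 and Krt19 in every library (points, replicates 1 to 3 from left to right) with the group mean as a line. Sorted iMPCs are lowest for both genes, and bulk myoblast values of Krt18 range from 0.0897 to 11.7 CPM.

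Established iMPCs differed from the last day of the progenitor route in 2 of the 5 tested genes (9.57% of all genes called, 3.33% higher and 6.24% lower), Krt7 and Krt8, both lower. Krt8 had 0.164, 0.0564 and 0.591 CPM in bulk iMPCs (log2 difference -2.81, SE 0.98, adjusted p = 0.039). That Krt8 call was lost without bulk iMPC replicate 1 or 2, without F/R/C day-10 replicate 1 or 3, and with no filter on low counts or only those groups fitted, with adjusted p up to 0.148, and the log2 difference was -4.10 without bulk iMPC replicate 3. Krt19 kept 6.13, 13.3 and 3.93 CPM in bulk iMPCs (log2 difference -0.08, SE 0.59) and Cdh1 0.575, 0.817 and 1.59 CPM (log2 difference 0.29, SE 0.54).

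The Pax7-nGFP-positive iMPCs had the lowest group means of Krt7, Krt18 and Krt19. Krt19 had 10, 1 and 1 reads there (0.433, 0.0404 and 0.0517 CPM), 44.4-fold below bulk iMPCs (log2 difference -5.41, SE 0.78, adjusted p = 1.7e-06). The sorted mean rests on replicate 1: without it the log2 difference was -7.26, and its size then depends on the prior count. Krt18 had 4, 0 and 0 reads, against 0.630, 2.40 and 0.833 CPM in bulk iMPCs (log2 difference -4.32, SE 1.35, adjusted p = 0.0091), and Cdh1 had 0, 1 and 1 reads, at least 7.33-fold lower than in bulk (adjusted p = 8.4e-06). These 3 of the 5 tested genes were called against bulk iMPCs, all lower (30.3% of all genes called, 9.88% higher and 20.5% lower). The Krt18 call was lost without bulk iMPC replicate 2 (adjusted p = 0.0566) or sorted replicate 2 (adjusted p = 0.0502). Without sorted replicate 1 the Krt18 value was -7.90, which depends on the prior count, since the other sorted libraries had no read. Krt8 was called lower without sorted replicate 2 (adjusted p = 0.0473).

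Sorted iMPCs also lay below sorted myoblasts in 4 of the 5 tested genes (30.0% of all genes called, 12.4% higher and 17.6% lower). Sorted myoblasts had 7.52, 4.24 and 1.09 CPM of Krt18 (log2 difference -6.06, SE 1.33, adjusted p = 0.00036), 1.48, 0.812 and 1.52 CPM of Krt19 (log2 difference -2.80, SE 0.76, adjusted p = 0.0029) and 1.41, 1.24 and 0.544 CPM of Krt7 (log2 difference -1.85, SE 0.60, adjusted p = 0.011). Cdh1 was at least 3.20-fold lower (adjusted p = 0.00039). The Krt7 call was lost without sorted iMPC replicate 1 (adjusted p = 0.0584); the Krt18 and Krt19 values then were -9.64 and -4.64 and depend on the prior count. The Krt18 value was -5.44 without sorted iMPC replicate 2 and -5.38 without sorted myoblast replicate 1. Krt8 was called lower without sorted iMPC replicate 2 (adjusted p = 0.0362). Among the bulk cells, 1 of the 5 was called (19.6%, 10.9% higher and 8.70% lower), Krt7, lower in iMPCs than in myoblasts (log2 difference -1.88, SE 0.55, adjusted p = 0.0088), and that call ended with the protein-coding transcripts alone (log2 difference -0.81, adjusted p = 0.333) and without bulk myoblast replicate 3 (adjusted p = 0.0781).

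Myoblasts themselves were uneven. Krt18 had 0.0897, 11.7 and 0.946 CPM in bulk myoblasts, so replicate 2 held nearly all of it, and the difference between bulk iMPCs and bulk myoblasts turned from -1.74 to 1.27 on the log2 scale without that library. Without bulk myoblast replicate 1 it was called (-2.30, adjusted p = 0.0475). Krt19 was the only 1 of the 5 called between sorted and bulk myoblasts (6.23% of all genes called, 2.20% higher and 4.03% lower), with 6.46, 2.73 and 7.39 CPM in bulk cells (log2 difference -2.12, SE 0.63, adjusted p = 0.026). It lost the call without bulk replicate 1 (adjusted p = 0.0707) or 3 (adjusted p = 0.0758) and without sorted replicate 2 (adjusted p = 0.131) or 3 (adjusted p = 0.0502). Against MEFs, bulk myoblasts had Krt18 called lower (log2 difference -2.61, SE 0.92, adjusted p = 0.02) and Cdh1 called higher, at least 3.65-fold (adjusted p = 5.4e-05), 2 of the 5 tested genes (29.2% of all genes called, 15.3% higher and 13.9% lower). That Krt18 call was lost without MEF replicate 3 (adjusted p = 0.0721) or bulk myoblast replicate 1 or 3 (0.0813 and 0.0825), and the value was -5.54 without replicate 2.

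**Figure D4:**
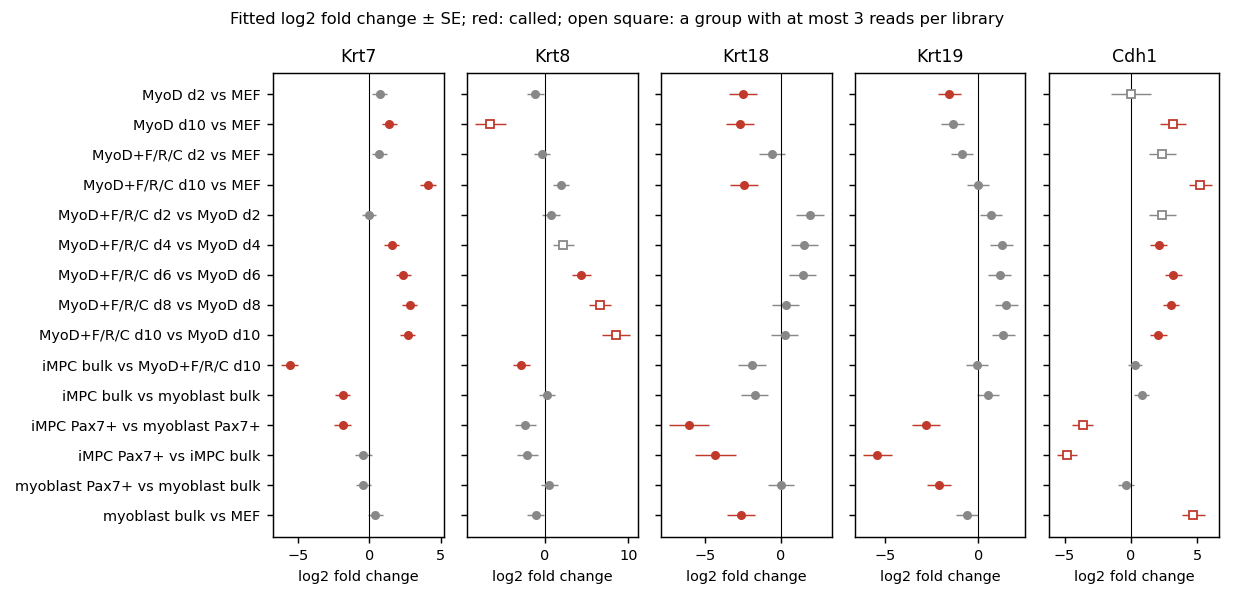
Fitted log2 fold change with its SE for the 5 tested genes in the 15 comparisons, in which red points are called and open squares mark comparisons with a group of at most 3 reads in each library, whose fitted value depends on the prior count. Krt7 is higher with F/R/C than with MyoD alone from day 4 (1.58 to 2.85) and lower in bulk iMPCs than on F/R/C day 10 (-5.58).

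The wider set of epithelial genes was mixed, and between the routes most of its calls went the other way from Krt7, Krt8 and Cdh1. Of 50 other genes of epithelial junctions and identity, 34 were tested. On day 10, 3 were called higher with F/R/C than with MyoD alone and 12 lower, with a median log2 difference of -1.05 against -0.07 over all genes, of which 9.91% were called higher and 13.4% lower. The median was lowest on day 10, and more were lower than higher on each day. On day 2, 0 were called higher and 6 lower (median -0.47, 2.13% and 2.80% of all genes). At an unadjusted p under 0.05, 2 were higher there, and DESeq2 called 0 higher. On day 4, 1 was higher and 8 lower (median -0.82, 6.58% and 6.66% of all genes). On day 6, 3 were higher and 7 lower (median -0.34, 8.23% and 7.14%). On day 8, 4 were higher and 7 lower (median -0.39, 9.20% and 9.46%). On day 10 the lowest were Krt80 (11.6 against 113 CPM, log2 difference -3.28, adjusted p = 0.0015) and Perp, a desmosome-associated gene (4.42 against 38.7 CPM, log2 difference -3.13, adjusted p = 0.0077). The highest were Prss8, an epithelial protease gene (1.16 against 0.0949 CPM, log2 difference 3.52, adjusted p = 0.011), and Elf3, an epithelial transcription factor gene (7.0 against 1.18 CPM, log2 difference 2.57, adjusted p = 0.0063).

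Against MEFs, 11 of the 34 were called higher and 0 lower on day 10 of MyoD alone (edgeR; 2 were lower at an unadjusted p under 0.05, and DESeq2 called 0 lower), where 14.3% of all genes were higher and 4.64% lower. With F/R/C 10 were higher and 8 lower on day 10 (19.0% and 15.8% of all genes). Itgb6, an integrin subunit of epithelia, had at most 3 reads in each MEF library and reached 70.9 CPM with MyoD alone and 63.0 CPM with F/R/C on day 10. Lamb3, a basement membrane laminin chain, had at most 1 read in MEFs and reached 33.2 and 13.9 CPM. Against bulk iMPCs, sorted iMPCs had 20 of the 34 called lower and 3 higher (20.5% and 9.88% of all genes), with a median log2 difference of -2.39, or -1.22 with genes at the detection floor set to their bound, against -0.13 over all genes. Markers of some other cells were lower in the same comparison, 4 of 6 for fibroblasts (median -3.89) and 4 of 6 tested for mesothelium (median -4.03). For a list that joins muscle progenitor genes (Pax7, Myf5) with Myog, Ckm, Acta1 and Mymk, it was 3 of 6 (median -2.43, with 1 higher). Of 5 tested endothelial markers 1 was lower, with a median of 0.74. Of 3 tested each, 1 was lower for leukocytes (median -1.79) and for Schwann cells (median -0.89). Of 2 tested keratinocyte markers, 1 was higher and 1 lower. The part of these cells in the epithelial values was not tested.

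Of 6 transcription factors known to repress epithelial genes, 2 were called higher and 3 lower than MEFs on day 10 with F/R/C (median log2 difference -0.78 against 0.08 over all genes, of which 19.0% were called higher and 15.8% lower). Zeb2 was higher (157 against 43.8 CPM, log2 difference 1.84, adjusted p = 3.7e-09), as was Snai1 (37.0 against 17.2 CPM, log2 difference 1.11, adjusted p = 0.00097). Twist2 was lower (9.11 against 114 CPM, log2 difference -3.64, adjusted p = 0.0012), as was Twist1 (5.02 against 24.9 CPM, log2 difference -2.30, adjusted p = 0.014). Between the routes on day 10, edgeR called 0 of the 6; 1 was higher and 1 lower at an unadjusted p under 0.05, and DESeq2 called 1 higher.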

How the data were processed

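Per the labels' protocols, mRNA was made into stranded poly-A libraries and read single-end on a NovaSeq instrument. The submitters' processing notes name bcl2fastq 2.19, Trimmomatic 0.36, kallisto 0.44, edgeR 3.28 and the build GRCm38.p6. The authors' deposited estimated counts per transcript are not normalized and share out reads that match more than 1 transcript. The TPM values, also deposited by the authors, are scaled to length and to a fixed sum and were used only to compare levels between genes.

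Of 121843 transcripts, 121104 matched GENCODE M21 (GRCm38) and 739 did not. Estimated counts were summed per gene and rounded to whole numbers. Krt7 and Cdh1 had sums that were not whole, and the others lay within 0.0047 reads of a whole number. Tests used edgeR 4.0.16 (R 4.3.3; TMM, filterByExpr by group, glmQLFit, glmQLFTest) with all 45 libraries in 1 fit, 30 residual degrees of freedom, 17325 genes and Benjamini-Hochberg adjustment. Called genes had an adjusted p below 0.05 and changed by at least 1 on the log2 scale in either direction. Each standard error is the log2 fold change over the root of F. The floor was 3 reads per library, as CPM of the TMM-scaled size; it allows for counting error alone, because without molecular identifiers reads may repeat a molecule. The procedure was tested on simulated data with known changes. Those counts were drawn independently for each library, so that run does not cover the pairing of same-numbered libraries.

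Groups and replicate numbers come from the titles. Deviations of same-numbered libraries were correlated in all 3 pairs for F/R/C against MyoD alone on days 2 (r from 0.346 to 0.375), 4 and 6 (lowest r 0.241 and 0.223), which counts as pairing there; in the other comparisons at least 1 pair was under 0.1. The genes and the lists were chosen with earlier results of these data known. In each list, up to 2 genes per direction with the largest called change were named, and for 4 genes the 5 most alike. Further list genes, among them Trp63, Perp, Cdh3, Dsp, Itgb4, Marveld2, Msln, Upk1b, Upk3b and Col1a1, were named for their levels. Alternatives were RLE factors, DESeq2 1.42.0, no filter, only the groups compared, a replicate block, no minimum fold, plain library totals, each library left out, and Krt7 from protein-coding transcripts, added after the data were seen.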

Additional observations from a re-analysis of the deposited data

Results flagged for a closer look

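The following differences between 2 effects were called. Their contrasts were added after the data were seen, and were tested in the same edgeR fit with Benjamini-Hochberg adjustment over all genes. The adjusted p-values do not allow for that choice. The effect of F/R/C against MyoD alone was larger on day 10 than on day 2 for Krt7, by 2.73 on the log2 scale (SE 0.73, adjusted p = 0.02). For Krt8 the same difference was 7.72 (SE 2.17, adjusted p = 0.026); its size depends on the prior count, since day 10 of MyoD alone had no Krt8 read. Of all genes, 6.01% were called in this contrast. For Krt18 (-1.68, adjusted p = 0.41), Krt19 (0.66, adjusted p = 0.66) and Cdh1 (-0.29, adjusted p = 0.87) it was not called.

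The difference between iMPCs and myoblasts was lower among sorted than among bulk cells for Krt18, at -4.32 on the log2 scale (SE 1.65, adjusted p = 0.042), for Krt19, at -3.29 (SE 0.96, adjusted p = 0.0087), and for Cdh1, at -4.45 (SE 0.98, adjusted p = 0.00083). The size for Cdh1 depends on the prior count, since sorted iMPCs had 0, 1 and 1 reads of it, and those for Krt18 and Krt19 rest on sorted iMPCs with 4, 0 and 0 and with 10, 1 and 1 reads. Of all genes, 24.1% were called in this contrast. The sorted libraries were quantified with another fragment length, and sorting and that setting cannot be told apart. The Krt18 value rests in part on bulk myoblast replicate 2, which held 11.7 CPM against 0.0897 and 0.946 CPM in the other libraries.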

How the results depend on the processing

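Counts of called genes among the 5 tested were within 1.5 times the reported count in 95 of 105 combinations of comparison and alternative. Without the filter on low counts, 1 was called in place of 2 for day 2 of MyoD alone against MEFs and for bulk iMPCs against F/R/C day 10. In fits of just the 2 groups, 1 was called for day 10 of MyoD alone against MEFs, for F/R/C against MyoD alone on day 2 and for bulk iMPCs against F/R/C day 10, and 0 for bulk iMPCs against bulk myoblasts, sorted against bulk myoblasts and bulk myoblasts against MEFs. With Krt7 from protein-coding transcripts, 1 was called between the routes on day 4 and 0 between bulk iMPCs and bulk myoblasts. Krt7 on day 10 of MyoD alone against MEFs then also lost its call (log2 0.54, adjusted p = 0.545).

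Leaving out 1 library at a time gave counts from 0 to 2 for day 2 and from 1 to 5 for day 10 of MyoD alone against MEFs, from 0 to 1 for F/R/C day 2 against MEFs, from 0 to 2 between the routes on day 4, from 1 to 2 for bulk iMPCs against F/R/C day 10, from 0 to 2 for bulk iMPCs against bulk myoblasts and for sorted against bulk myoblasts, and from 1 to 2 for bulk myoblasts against MEFs. Between the routes it gave 3 on day 6 and from 3 to 4 on days 8 and 10. With 1 library left out, 4 log2 differences turned: Cldn4 on day 10 of MyoD alone against MEFs ranged from -0.25 (without MyoD-alone replicate 2) to 5.82, Dynap in bulk iMPCs against F/R/C day 10 from -1.28 (without bulk iMPC replicate 1) to 2.45, Krt18 in bulk iMPCs against bulk myoblasts from -2.55 to 1.27 (without bulk myoblast replicate 2), and Cldn4 in sorted against bulk myoblasts from -7.52 to 1.88 (without bulk myoblast replicate 1). Where a group had at most 3 reads in each library, as MEFs did for Cldn4, these fitted values depend on the prior count. The cause was not tested.

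The replicate number was also fitted as a block, shared by all 45 libraries, including groups in which same-numbered libraries were not paired. It is therefore not a paired test of the routes. With that block, no member call changed on days 2, 4 and 6, where the pairing held. Elsewhere the block gave 4 called genes in place of 3 between the routes on days 8 and 10, where Krt19 was added (adjusted p = 0.0333 and 0.0275), and 5 in place of 4 for day 10 of MyoD alone against MEFs, where Krt19 was again added (adjusted p = 0.0365). It changed no other count.

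Over all genes, fitting only the groups compared gave 2019 calls against 3279 for day 10 of MyoD alone against MEFs, 1420 against 854 between the routes on day 2, 1265 against 3396 for bulk iMPCs against bulk myoblasts, 3424 against 5199 for the sorted cells, 0 against 1080 for sorted against bulk myoblasts and 3123 against 5057 for bulk myoblasts against MEFs. Without 1 library, the calls were 423 (F/R/C replicate 3) or 492 (MyoD-alone replicate 2) between the routes on day 2, 2077 (MyoD-alone replicate 2) for day 10 of MyoD alone against MEFs, and 513 (sorted replicate 2) or 674 (bulk replicate 1) for sorted against bulk myoblasts. With no minimum fold change, the counts rose by 1.53 to 2.14 times. Genes such as Cdh1, Epcam and Krt8, with at most 59, 35 and 135 reads in any library, are limited by depth.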
